A study of Bos taurus with 16 samples.

Results

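MUCL3 and MUC16 are genes for mucins or mucin-like proteins, and each is a single row among 36824 gene entries of a bovine (Bos taurus) RNA-seq count table. They were chosen by their counts in the 4 groups and in single libraries, because both had already been seen to be higher in granulosa than in cumulus libraries, MUC16 in only some of them. The difference between the cell types is therefore given below as a description with no test. Granulosa cells line the wall of the ovarian follicle, and cumulus cells are the layer around the oocyte.

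The 16 libraries form 4 groups of 4. They are granulosa cells and cumulus cells, each from follicles on the ovary with the corpus luteum (ipsilateral) and from follicles on the other ovary (contralateral). The corpus luteum is the gland that makes progesterone after ovulation. Per the design text, follicles were aspirated by ovum pick-up (OPU), cumulus-oocyte complexes were picked under a stereomicroscope, and a pool joins material of 3 animals, so a value describes a pool and not an animal. How the granulosa cells were taken is not described there. Neither breed nor age is stated, and the labels do not say whether pools share animals, so p-values measure the spread between pools. Library numbers were given here in sample order within each group. Equal numbers in different groups do not say that pools are matched.

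Mucins are large glycoproteins whose serine- and threonine-rich stretches carry dense O-linked sugar chains. They come in secreted, gel-forming kinds, such as MUC5B, and in kinds anchored in the cell membrane, such as MUC16. In humans MUC16 carries the CA125 antigen, binds mesothelin and is found on the mesothelium and on wet epithelia of the airway, the eye and the female reproductive tract. MUCL3, formerly DPCR1, is a membrane mucin-like gene that lies beside MUC21 in the human major histocompatibility region. In the reference assembly ARS-UCD2.0 bovine MUCL3 also has MUC21 as its next gene on 1 side.

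Library totals lay between 10066844 and 21910233 counts. Levels below are in CPM, counts per 1000000 counts of the library, after TMM scaling over all libraries. They are not corrected for gene length, so the levels of the 2 mucin genes are not compared with each other. A count of 0 in a single library allows up to 3 counts, which is between 0.135 and 0.317 CPM depending on depth. Such limits, and the counting intervals below, cover counting error only. None of the 14 granulosa markers and 10 cumulus markers listed for this purpose had an entry by name, so the cell type labels were not checked against them. Oocyte transcripts were most abundant in contralateral granulosa library 3 and contralateral cumulus libraries 2 and 4. The oocyte genes H1FOO (current symbol H1-8), a linker histone, and BCL2L10, a regulator of apoptosis, together reached 10.8, 18.6 and 204 CPM in these 3 libraries. In every other library their sum was 1.38 CPM or less.

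MUCL3 was found in all granulosa libraries. It stood at 3.69, 11.8, 11 and 6.7 CPM in ipsilateral granulosa libraries 1 to 4. In contralateral granulosa libraries 1 to 4 it stood at 22.1, 15.1, 17 and 3.41 CPM. Ipsilateral library 1 and contralateral library 4 were the lowest, and the sides overlapped. In cumulus cells the gene had 13 counts in ipsilateral library 2 (1.19 CPM), 1 count in ipsilateral library 4 (0.0609 CPM) and none in the other 6 libraries. Every granulosa library therefore lay above every cumulus library, the nearest values being 3.41 and 1.19 CPM.

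MUC16 divided the granulosa libraries. It stood at 9.98, 0, 44.3 and 0 CPM in ipsilateral granulosa libraries 1 to 4. In contralateral granulosa libraries 1 to 4 it stood at 0.739, 0.0529, 24.7 and 0 CPM. In counts, 154, 691 and 498 were in ipsilateral libraries 1 and 3 and contralateral library 3, and 8 counts were in the other 5 granulosa libraries together. Both sides thus held libraries with the transcript and libraries with few counts or none. In cumulus cells all 43 counts were in contralateral library 2 (2.09 CPM), which lay above 5 of the 8 granulosa libraries.

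**Figure D1:**
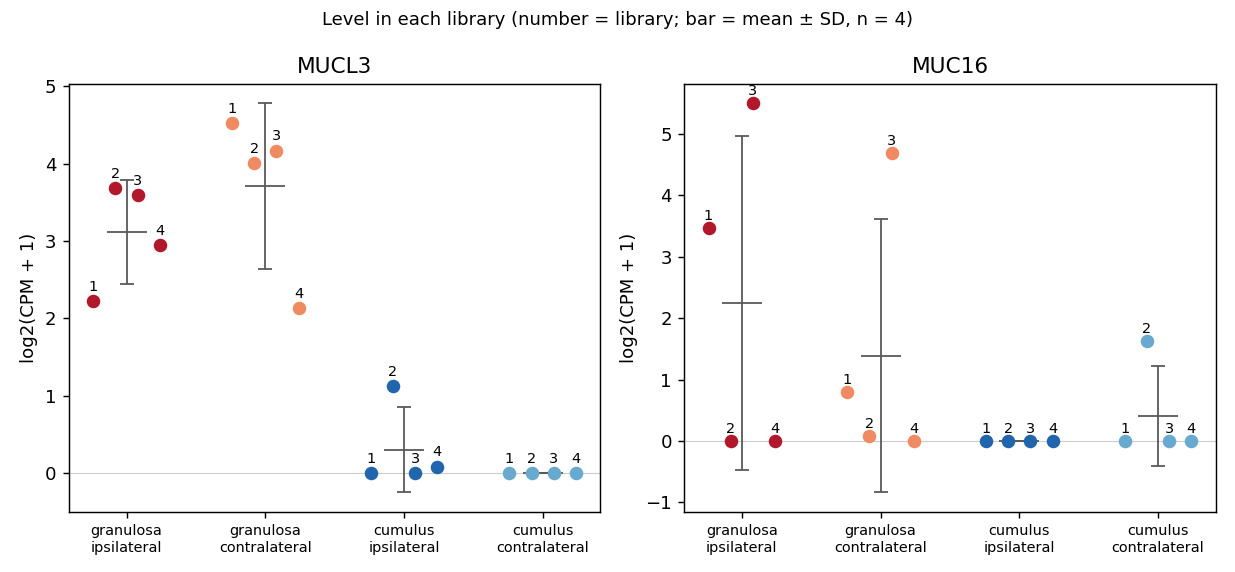
Level of MUCL3 (left) and MUC16 (right) in each library as log2(CPM + 1), by cell type and side; each numbered point is a library and the grey bars are the group mean ± SD (n = 4). MUCL3 was at 3.41 CPM or more in every granulosa library, whereas MUC16 was at 9.98 CPM or more in 3 granulosa libraries and at 0.739 CPM or less in the other 5.

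Summed over libraries and scaled by depth, the 1453 MUCL3 counts of granulosa libraries stood against 14 of cumulus libraries. That is a ratio of 98.3 with a 95% exact counting interval from 58.4 to 180. On the ipsilateral side the ratio of granulosa to cumulus cells was 31.4 (18.6 to 57.9). On the contralateral side MUCL3 had 895 counts in granulosa cells and 0 in cumulus cells. Against 3 counts over the cumulus group this is at least 332-fold higher in granulosa cells. Without ipsilateral cumulus library 2, a single cumulus count was left, and the ratio was 1257 with an interval from 225 to 49699.

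For MUC16, 1351 granulosa counts stood against 43 cumulus counts, a depth-scaled ratio of 29.8 (95% exact counting interval 22 to 41.3). On the ipsilateral side it had 845 counts in granulosa cells and 0 in cumulus cells, at least 222-fold higher in granulosa cells against 3 counts over the cumulus group. On the contralateral side the ratio was 13.1 (9.6 to 18.3). Without contralateral cumulus library 2 no cumulus count was left, and granulosa cells were at least 357-fold higher, a log2 ratio of at least 8.48. Leaving out ipsilateral granulosa library 3 instead gave the lowest log2 ratio, 4.04. These intervals do not include the spread between pools, which for MUC16 in granulosa cells ran over 0 to 44.3 CPM. Of 18038 entries tested between the cell types with edgeR's quasi-likelihood test, 30.3% were called higher and 29.9% lower in granulosa cells at an adjusted p under 0.05. In pools, fewer cells with a transcript and less transcript per cell cannot be told apart.

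The 2 genes were not chosen for a difference between the sides of the corpus luteum, and the side was tested. MUCL3 averaged 8.31 ± 3.81 CPM in ipsilateral and 14.4 ± 7.9 CPM in contralateral granulosa cells (SD, n = 4 each). Its log2 fold change, ipsilateral minus contralateral, was -0.79 ± 0.53 SE, with a 95% interval from -1.98 to 0.39, and did not pass (edgeR, adjusted p = 0.9996). The unadjusted p was 0.166, and by an exact two-sided permutation test of log2(CPM + 1) p was 0.343 (adjusted p = 0.857 over 4 tests). MUC16 averaged 13.6 ± 21 CPM in ipsilateral and 6.37 ± 12.2 CPM in contralateral granulosa cells (SD, n = 4 each). Its log2 fold change was 1.06 ± 2.28 SE, with a 95% interval from -4.32 to 6.44, and did not pass (edgeR, adjusted p = 0.9996; exact permutation p = 0.743, adjusted p = 0.99).

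The interval of MUC16 spans large differences either way, so the comparison does not show that the sides are alike. A single library set its direction. Without ipsilateral library 3 the log2 fold change was -0.96, and without contralateral library 3 it was 6.01, with adjusted p values of 0.9809 and 0.9999 by edgeR. MUCL3 stayed below 0 whichever library was left out, from -1.12 without contralateral library 4 to -0.52 without contralateral library 1, and did not pass. Across the granulosa side comparison 0 of 16411 entries passed, which is 0% called, and 579 entries (3.53%) had an unadjusted p under 0.05. Groups of 4 allow an exact permutation p of 0.0286 at the smallest.

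**Figure D2:**
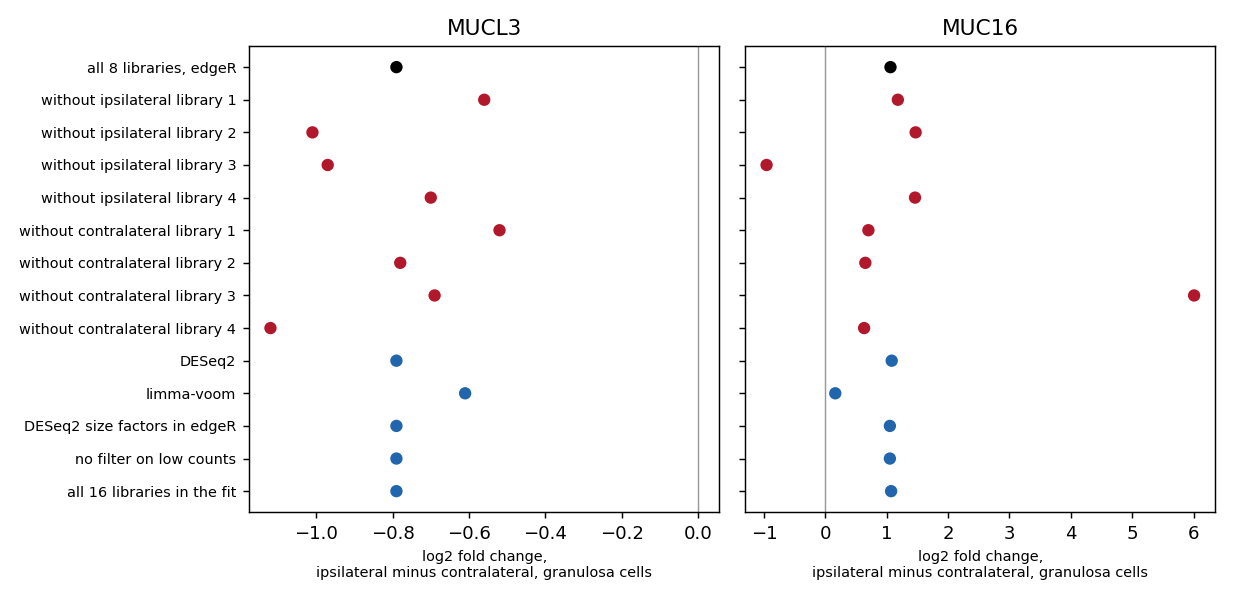
Log2 fold change of MUCL3 (left) and MUC16 (right) between ipsilateral and contralateral granulosa cells, one point per setting: all 8 libraries (black), 1 library left out (red) and another tool or filter (blue); the 2 horizontal axes differ in range. MUCL3 lay between -1.12 and -0.52 when 1 library was left out, and MUC16 between -0.96 and 6.01.

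In cumulus cells neither gene passed the filter on low counts (0 of 2 kept), so no model value is given for the side. MUCL3 averaged 0.313 ± 0.587 CPM in ipsilateral cumulus cells and had no count in contralateral cumulus cells (SD over 4 libraries; exact permutation p = 0.429, adjusted p = 0.857). With counts in only 2 of 8 libraries, both ipsilateral, this is the smallest p that MUCL3 could give here, so the test could not pass. MUC16 had no count in ipsilateral cumulus cells and averaged 0.523 ± 1.05 CPM in contralateral cumulus cells. With counts in only 1 of 8 libraries every relabelling gave a difference of the same size, so its exact permutation p could only be 1. Among 16323 entries 0% were called in this comparison, and 1791 (11%) had an unadjusted p under 0.05. DESeq2 called 120 entries.

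The side difference in granulosa cells was also set against that in cumulus cells over all 16 libraries. MUCL3 averaged 8.31 CPM in ipsilateral against 14.4 CPM in contralateral granulosa cells, and its 14 cumulus counts were all ipsilateral. Of these 14 counts 13 were in 1 library. MUC16 averaged 13.6 CPM in ipsilateral against 6.37 CPM in contralateral granulosa cells, and its 43 cumulus counts were all in 1 contralateral library. Both genes did not pass the filter within cumulus cells and had a cumulus group with no count, so neither a fold nor a p is given for them. Of 18038 entries 0% passed with edgeR, and 1358 (7.53%) had an unadjusted p under 0.05.

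MUC16 was also chosen for its presence in only some granulosa libraries, so its spread among them is given as a description. The SD of MUC16 over the 8 granulosa libraries was 1.64 times its mean. Of the 16411 entries tested in granulosa cells, 99.4% had a smaller ratio of SD to mean and 95 had a larger one. For MUCL3 the ratio was 0.581, above 85.1% of entries, where the median entry had 0.243. Ipsilateral library 1, the third highest for MUC16, was the second lowest granulosa library for MUCL3. Contralateral library 1, the highest for MUCL3, held 7 counts of MUC16.

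**Figure D3:**
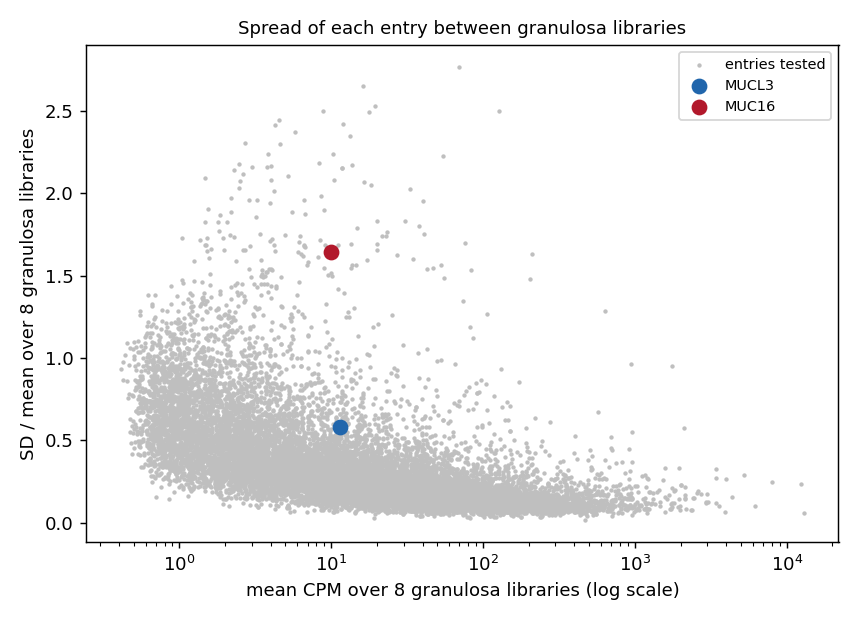
Ratio of SD to mean (vertical axis) against mean CPM on a log scale (horizontal axis) over the 8 granulosa libraries; each grey point is an entry tested in granulosa cells, with MUCL3 in blue and MUC16 in red. MUC16 lies at 1.64, above 99.4% of entries, and MUCL3 at 0.581.

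The same 3 granulosa libraries, ipsilateral 1 and 3 and contralateral 3, were high for other genes. By Pearson's r of log2(CPM + 1) over the 8 granulosa libraries, the named entries most like MUC16 were LOC516421 (SLC15A2, r = 0.98), FAM84A (LRATD1, r = 0.97), GPX2 (r = 0.96), PLAC8 (r = 0.87) and LOC540014 (ZNF134, r = 0.86), among 676 named entries with a mean of at least 1 CPM. These values describe 8 shared libraries and carry no test. Since MUC16 divides the libraries into separate sets, its r reads how far an entry divides them the same way. The first 4 of these were also the 4 most like it over all 16 libraries, followed by SYN2, a synapsin gene (r = 0.78).

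SLC15A2 encodes a proton-coupled peptide transporter. LOC516421 stood at 1.56, 0, 8.79 and 0.135 CPM in ipsilateral granulosa libraries 1 to 4 and at 0.528, 0.0529, 4.96 and 0 CPM in contralateral granulosa libraries 1 to 4. Its highest cumulus value was 0.195 CPM. A separate entry under the symbol SLC15A2 was also highest in ipsilateral library 3 (0.834 CPM) and contralateral library 3 (0.694 CPM), and reads shared between these entries cannot be assigned with certainty.

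GPX2 encodes a glutathione peroxidase of epithelia. It stood at 5.25, 0.328, 15.5 and 0.225 CPM in ipsilateral granulosa libraries 1 to 4 and at 0.528, 0, 38.5 and 0 CPM in contralateral granulosa libraries 1 to 4. Unlike MUC16, GPX2 was highest in contralateral library 3. FAM84A (LRATD1), which encodes a protein with an LRAT domain, stood at 4.47, 0, 22.4 and 0.495 CPM in ipsilateral and at 0.739, 0.317, 26.5 and 0.914 CPM in contralateral granulosa libraries. Its highest cumulus value, 1.07 CPM, was in contralateral library 2, where MUC16 had its cumulus counts. In that library GPX2 was at 0.243 CPM and LOC516421 at 0.0487 CPM. PLAC8 followed less closely, since contralateral granulosa library 1 (4.33 CPM) lay above ipsilateral library 1 (2.53 CPM). LOC540014 varied little in level, from 29 to 34.6 CPM in ipsilateral and from 27.2 to 37.8 CPM in contralateral granulosa libraries.

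Most entries with this pattern had no name, as was true of most entries in granulosa cells. Of 15597 other entries with a mean of at least 1 CPM in granulosa cells, 137 had an r of 0.9 or more to MUC16, and 3 of these were named. Over all 15597, 676 were named. In 136 of the 137 the same 3 libraries lay above the other 5, which a high r to MUC16 over these libraries largely entails. ENSBTAG00000011976 was the closest (r = 0.998), at 64, 347 and 197 CPM in the 3 libraries and at 1.06 CPM or less in the other 5. ENSBTAG00000016165 (r = 0.997) stood at 19.6, 105 and 44.4 CPM in the 3 libraries. Of 15599 entries, MUC16 included, these 3 libraries lay above the other 5 in 362 (2.32%) and below them in 401 (2.57%). With a threshold on size chosen after the values were seen, 33 of the 15599 entries, MUC16 and GPX2 among them, were at least 4-fold higher (on CPM + 1) in each of these 3 libraries than in any of the other 5. No entry was at least 4-fold lower in this way. The 3 libraries were taken from the values of MUC16, and no other set of 3 was counted, so these counts are a description.

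Over the granulosa libraries 12 of 15597 entries reached an r of 0.9 to MUCL3, and 1 of these was named. Over all 16 libraries 776 of 15963 did, and 28 of these were named. Among entries with an Ensembl ID, ENSBTAG00000013593 was the closest in both, with r = 0.969 and 0.972. The named entries most like MUCL3 over all libraries were C5H12orf75 (r = 0.95), C8H9orf3 (0.95), GPR142, a receptor for tryptophan (0.94), FXYD3, whose product regulates the sodium pump (0.94), and SARS (SARS1), the seryl-tRNA synthetase gene (0.94). Over the 8 granulosa libraries alone their r to MUCL3 was lower, from 0.52 for FXYD3 to 0.72 for SARS. MUCL3 was chosen for its difference between the cell types, and r over all 16 libraries largely reads that same difference. Within granulosa cells the named entries most like MUCL3 were LOC100847890 (FLYWCH2, r = 0.92), ZNF461 (0.88), SNRNP70 (0.83), ARL9 (0.82) and YAE1D1 (YAE1, 0.82). None of them was among the entries most like MUC16.

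**Figure D4:**
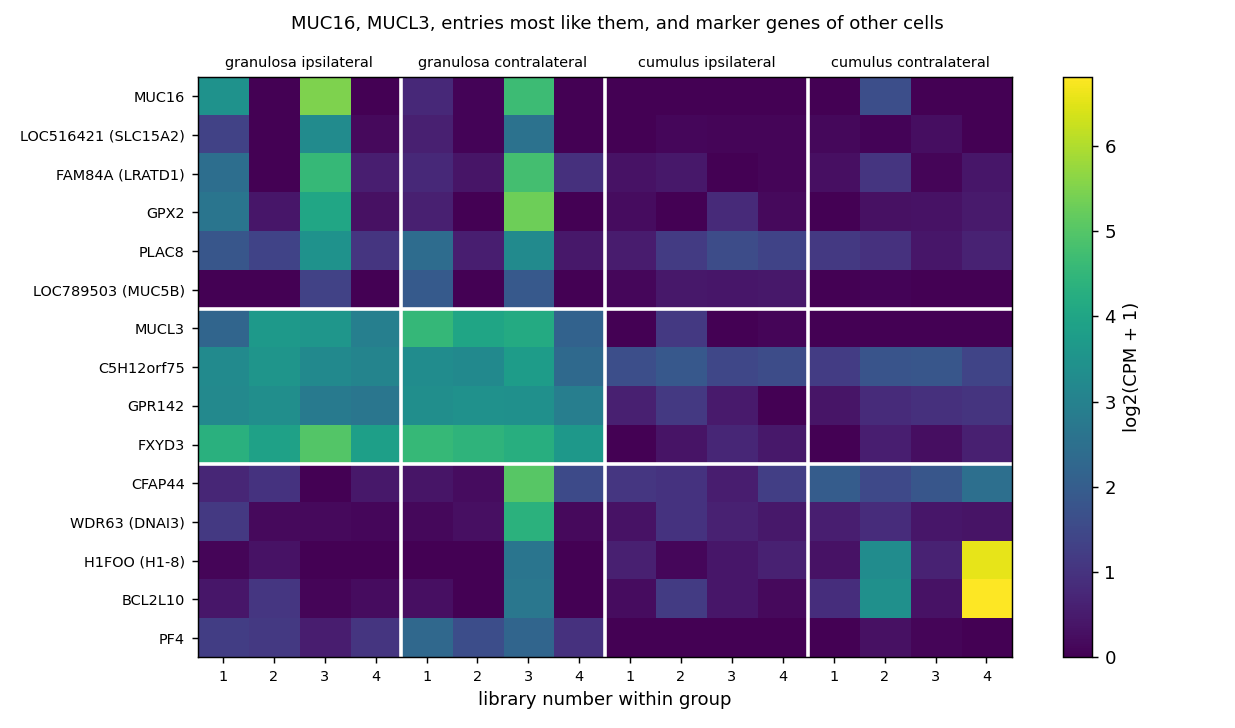
Level of MUC16 and MUCL3, of the entries like them and of marker genes in each library; columns are the 16 libraries by group, rows are entries, and colour is log2(CPM + 1). MUC16, LOC516421, FAM84A and GPX2 are high in ipsilateral granulosa libraries 1 and 3 and contralateral granulosa library 3, while CFAP44, WDR63, H1FOO and BCL2L10 stand out among granulosa libraries only in contralateral library 3.

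Markers of other cells were read beside these values. Of 29 markers of oviduct and ciliated epithelium, 6 had an entry by name. All of these 6 except LRRC6 had been listed with earlier results of these data known. How many of them were called between the cell types is therefore a description. The axoneme genes CFAP44 and WDR63 (DNAI3) stood at 32.1 and 19.6 CPM in contralateral granulosa library 3. In ipsilateral granulosa library 3, where MUC16 was highest, they stood at 0 and 0.128 CPM. In ipsilateral granulosa library 1, also high for MUC16, they stood at 0.648 and 1.17 CPM. Outside these libraries WDR63 was at 0.212 CPM or less in granulosa cells, and CFAP44 reached 1.89 CPM in contralateral library 4. The summed level of the 6 ciliary entries ranged from 19.8 to 42.4 CPM in ipsilateral and from 23 to 111 CPM in contralateral granulosa libraries, and from 149 to 210 CPM in ipsilateral and from 155 to 202 CPM in contralateral cumulus libraries. The sum was 19.8 and 24 CPM in ipsilateral granulosa libraries 1 and 3, the first of which was the lowest of all granulosa libraries. Of the 6 entries, HYDIN, ARMC4 (ODAD2) and LRRC6 (DNAAF11), which serve motile cilia, were lower in granulosa cells, with log2 fold changes of -4.11, -2.31 and -1.50, and the other 3 did not pass (edgeR). Of all entries tested, 29.9% were called lower in granulosa cells.

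The 2 oocyte genes found by name, of 14 listed, had been listed with earlier results of these data known. They summed to 0.0641 to 1.38 CPM in ipsilateral and 0 to 10.8 CPM in contralateral granulosa libraries. In cumulus cells they summed to 0.67 to 1.38 CPM in ipsilateral and 0.843 to 204 CPM in contralateral libraries. H1FOO was at 0 in ipsilateral granulosa library 3, and MUC16 was at 0 in contralateral cumulus library 4, where the oocyte genes were highest. In contralateral cumulus library 2 and contralateral granulosa library 3 both MUC16 and the oocyte genes were present, and the part of one in the other was not tested. BCL2L10 did not pass between the cell types (log2 fold change -2.23 ± 1.35 SE; edgeR, adjusted p = 0.17). The platelet gene PF4 was the only entry by name of 19 leukocyte and blood markers. It had been listed with earlier results of these data known, so its fold and p are a description. Of all entries tested, 30.3% were called higher in granulosa cells. PF4 was among them (log2 fold change 5.99 ± 0.81 SE; edgeR, adjusted p = 2.42e-05). PF4 had only 6 cumulus counts, none of them ipsilateral, so the size of this fold is poorly known. It stood at 0.449 to 1.36 CPM in ipsilateral and 0.975 to 3.91 CPM in contralateral granulosa libraries. Its lowest granulosa value was in ipsilateral library 3. In cumulus cells PF4 was at 0 in ipsilateral libraries and at 0 to 0.243 CPM in contralateral libraries.

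MUC16 was itself the only entry found by name among 19 markers of ovarian surface epithelium and mesothelium. None of the 15 theca and stroma or the 8 endothelium markers had an entry by name. Of 32 epithelial genes only FXYD3 did. It stood at 19.1, 14, 30.5 and 13.4 CPM in ipsilateral and at 22.6, 20.5, 18.5 and 11.3 CPM in contralateral granulosa libraries, against at most 0.673 CPM in cumulus libraries. FXYD3 had been put in the list with earlier results of these data known, so its fold and p are a description. Of all entries tested, 30.3% were called higher in granulosa cells. FXYD3 was among them (log2 fold change 5.83 ± 0.46 SE; edgeR, adjusted p = 2.54e-08) and, unlike MUC16, was present in all 8 granulosa libraries.

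Among 28 mucin genes listed, 9 had an entry by name. Besides MUCL3 and MUC16 only MUC19, a gel-forming mucin gene, passed the filter, and it did not differ detectably between the cell types (log2 fold change, granulosa minus cumulus, -0.38 ± 0.40 SE; edgeR, adjusted p = 0.427). The median log2 fold change over all entries tested was -0.03. MUC19 was found in every library, with 0.211 to 0.731 CPM in granulosa and 0.336 to 0.85 CPM in cumulus libraries.

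The gel-forming mucin gene MUC5B, counted as LOC789503 and named here after its values were seen, did not pass the filter. It had 24, 27 and 55 counts in ipsilateral granulosa library 3 and contralateral granulosa libraries 1 and 3, which is 1.54, 2.85 and 2.73 CPM, and none in the other 5 granulosa libraries. In cumulus cells it had 16 counts over the 4 ipsilateral libraries and 1 over the contralateral libraries. MUC5B thus shared ipsilateral library 3 and contralateral library 3 with MUC16, but was at 0 in ipsilateral library 1.

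MUC21, a membrane mucin gene next to MUCL3 in ARS-UCD2.0, was counted 14 times in granulosa libraries and never in cumulus libraries. Of the 14 counts 12 were in contralateral granulosa library 3. The remaining mucin entries, MUC3A, MUC5AC, MUC6 and MUC7, had at most 2 counts in any library. The other named entries nearest to MUCL3 lie 25 or more genes away. Of these MGC126945 had 881 granulosa and 738 cumulus counts, and ZNRD1 (POLR1H), an RNA polymerase I subunit gene, had 7762 granulosa and 7474 cumulus counts. Around MUC16 the nearest named entries were the olfactory receptor genes OR1M1, OR7G7 and OR7G44, with no count in any library. No reference gene overlaps MUCL3, and MUC16 overlaps a microRNA gene, MIR12035.

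Enzymes that build the sugar chains of mucins were followed through 3 of 44 listed genes. GALNT4, which starts O-linked chains, had a log2 fold change between granulosa and cumulus cells of 0.21 ± 0.19 SE (edgeR, adjusted p = 0.356). For its relative GALNTL6 it was 0.16 ± 0.31 SE (adjusted p = 0.666) and for the sialyltransferase gene ST6GALNAC3 0.06 ± 0.54 SE (adjusted p = 0.934). None of the 3 passed, against the 60.2% of all entries that were called between the cell types. None of 13 listed mucin partners and linkers, such as mesothelin, galectins and ezrin, had an entry by name.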

How the data were processed

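PolyA RNA of cumulus and granulosa cells was extracted with a miRNeasy Mini Kit, made into cDNA with the SMART-Seq HT kit and into libraries with Nextera XT, and sequenced as single-end 75 bp reads, per the labels' protocols. These kits do not mark strand. FastQC, Trimmomatic, STAR and DESeq2 are named without versions, per the submitters' processing notes. The build, annotation and counting program, and so the handling of reads from repeats inside mucin genes, are, in the sources used here, not given. The authors deposited raw counts per gene entry, with columns named by sample title. Of 36824 entries, 27607 carry an Ensembl ID and 2473 have a name (by symbol, or by NCBI gene number in RefSeq genes of ARS-UCD2.0).

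Tests used edgeR 4.0.16 in R 4.3.3 (limma 3.58.1, DESeq2 1.42.0 as alternatives): filterByExpr (minimum count 10, minimum total 15), TMM factors, robust quasi-likelihood F-test, and Benjamini-Hochberg adjustment over all entries tested. The script was tested on simulated data. Sides were compared within a cell type (8 libraries), and the rest over all 16 with 4 group means. SE is the size of the log2 fold change over the square root of F. Exact permutation tests used 70 relabellings. Neither gene had another entry within 2% or 2 counts in every library. Named entries are both genes, the 5 most like each, neighbours and members of the lists. The 2 genes and the lists were chosen with earlier results of these data known.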

Additional observations from a re-analysis of the deposited data

Results flagged for a closer look

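In 8 sets of 4 libraries (2 genes in 4 groups), 3 held a library far from the rest by Dixon's ratio. The genes were chosen with these values in view, and a group with counts in a single library gives the highest ratio whatever the count, so the usual chance rate of about 1 in 20 does not apply. MUCL3 in contralateral and MUC16 in ipsilateral cumulus libraries had no count, so these sets could not be flagged. MUC16 stood at 24.7 CPM in contralateral granulosa library 3, with 0.739 CPM or less in the other 3 libraries of the group. MUC16 stood at 2.09 CPM in contralateral cumulus library 2 and at 0 in the rest. MUCL3 stood at 1.19 CPM in ipsilateral cumulus library 2, with 0.0609 CPM or less in the rest.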

How the results depend on the processing

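No paired analysis was possible because the labels give no replicate numbers. Neither gene passed for the side in granulosa cells under any setting run. Leaving out single libraries moved the granulosa side difference of MUC16 from -0.96 (the only reversal of either gene) to 6.01 and that of MUCL3 from -1.12 to -0.52; the cause was not tested. DESeq2 called 1 entry for the side in granulosa cells, 120 in cumulus cells and 1 for the difference between those differences, where edgeR called 0. Without the 3 libraries with oocyte transcripts, a setting added after seeing the data, edgeR called 30 in cumulus cells. As log2 ratios of granulosa over cumulus counts (6.62 and 4.90 with all libraries), MUCL3 had 4.97 with ipsilateral and at least 8.38 with contralateral libraries alone, and from 6.36 to 10.30 with single libraries left out. MUC16 had at least 7.79 with ipsilateral libraries alone, at least 7.79 without the libraries with oocyte transcripts, and from 4.04 to at least 8.48 with single libraries left out. Log2 fold changes of marker and enzyme genes that did not pass turned sign in some settings. CFAP44 had -1.16 by limma-voom, -1.38 without the libraries with oocyte transcripts, -0.99 with ipsilateral libraries alone and from -1.44 to 0.47 with single libraries left out. WDR63 had -0.26 by limma-voom, -0.94 without the oocyte libraries, and from -1.07 to 1.65. TTC25 had -0.05 without the oocyte libraries, -0.85 with ipsilateral libraries alone and from -0.10 to 0.39. ST6GALNAC3 had -0.05 by limma-voom, -0.09 without the oocyte libraries, -0.65 with ipsilateral libraries alone and from -0.55 to 0.22, and GALNT4 had -0.06 with contralateral libraries alone. Depth limits what a library at 0 shows to the 0.135 to 0.317 CPM given above.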
